A study of Mus musculus with 26 samples.

Results

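The T cell receptor beta locus of the mouse holds the gene segments from which every T cell of the alpha-beta lineage assembles its beta chain. All genes whose symbol starts with Trbv, Trbd, Trbj or Trbc were taken from the deposited tables, which gave 39 of 25814 genes: 22 variable (V) segments, 2 diversity (D) segments, 13 joining (J) segments and 2 constant (C) genes. The study sequenced messenger RNA from T cells that were sorted from Peyer's patches, the lymphoid tissue of the gut wall, of C57Bl/6 mice, and asked how diet alters these cells. CD4+ T cells were taken on a conventional diet (n = 6) and on an elemental diet, in which free amino acids take the place of protein (n = 6). These libraries began with 22 ng RNA and used poly(A) capture with a standard kit. T cells sorted as CD44+ (n = 7) or as CD44- (n = 7), both on the conventional diet, went into libraries with 1 ng and a low-input kit, so that cell sort and kit cannot be told apart between the CD4+ and the CD44 libraries, and these were not tested against each other. No genotype other than the strain, no age, no CD4 gate for the CD44 sorts and no statement that replicates were separate animals is given in the labels used here. The p-values then measure the spread between these samples, which may be technical.

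A developing T cell joins 1 V, 1 D and 1 J segment of the locus by DNA recombination, and splicing then links the joined exon to a constant gene. Cells of 1 clone share the same rearrangement, so the V segments read in a bulk library reflect which clones it holds and how much beta chain messenger RNA each makes. Unrearranged V segments give little RNA, and the constant genes are read in every rearranged transcript. CD44 is an adhesion receptor that is low on naive T cells and high on cells that have met antigen.

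All 39 members lie on chromosome 6 of GRCm38, within chr6:40891229-41558452, at positions that equal those of the GENCODE M21 annotation. The V segments come first along the plus strand, the 2 D-J-C clusters follow, and Trbv31 lies beyond Trbc2 on the minus strand (chr6:41557691-41558452). The sequences below are from the GENCODE M21 transcripts. The last 45 transcript bases of the V segments that lead the results show where the segments differ; the codon TGT that opens the junction with D and J is in capitals. The 5-base run TGTGC was in this window in 19 of 22 V segments and TGTGCCAGC in 13 of 22, read on the transcript strand, the second holding the first.
Trbv3: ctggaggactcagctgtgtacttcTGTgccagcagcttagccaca
Trbv13-1: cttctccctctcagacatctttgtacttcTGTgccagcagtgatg
Trbv13-2: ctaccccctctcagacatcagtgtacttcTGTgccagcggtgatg
Trbv13-3: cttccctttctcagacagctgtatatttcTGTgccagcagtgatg
Trbv26: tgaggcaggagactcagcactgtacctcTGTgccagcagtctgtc
Trbv29: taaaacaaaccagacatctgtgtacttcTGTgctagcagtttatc
Trbv31: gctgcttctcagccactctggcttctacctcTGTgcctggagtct

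The D and J segments are short enough to print whole. Both D segments are shown because no read was counted on them. The J segments shown are those with the most reads in the CD4+ libraries, then the 2 that lack both TTCGG and TTTGG, which are in capitals where present and encode the conserved phenylalanine and the start of the glycine after it. One of these motifs was in 11 of 13 J segments, TTCGG in 4 and TTTGG in 8, on the transcript strand.
Trbd1: gggacagggggc
Trbd2: gggactgggggggc
Trbj2-1: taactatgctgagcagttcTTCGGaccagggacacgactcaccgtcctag
Trbj2-7: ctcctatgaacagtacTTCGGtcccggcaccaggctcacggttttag
Trbj2-3: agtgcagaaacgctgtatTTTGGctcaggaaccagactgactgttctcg
Trbj2-4: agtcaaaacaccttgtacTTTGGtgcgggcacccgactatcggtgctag
Trbj1-6: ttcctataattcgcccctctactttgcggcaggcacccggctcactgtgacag
Trbj1-7: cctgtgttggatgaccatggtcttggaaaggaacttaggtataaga

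Trbc1 (chr6:41538218-41539881) and Trbc2 (chr6:41546730-41548352) encode alternative constant regions of the beta chain. Their transcripts are identical over the first 259 bases and first differ at base 260, counted from the start of the transcript. Of 518 coding bases 23 differ, and 14 of those lie in bases 361 to 480, printed here with the differing bases in capitals.
Trbc1: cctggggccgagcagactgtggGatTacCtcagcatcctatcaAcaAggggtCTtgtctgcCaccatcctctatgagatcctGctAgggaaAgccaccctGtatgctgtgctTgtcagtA
Trbc2: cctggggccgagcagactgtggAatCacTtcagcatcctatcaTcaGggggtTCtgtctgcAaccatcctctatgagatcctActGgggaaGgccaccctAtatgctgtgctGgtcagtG

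The tables list every member with an exon length of 0, and none had an exon read in any library. Their reads stand only in the total gene reads, which were therefore used throughout and are given as counts per 1000000 total gene reads of a library (CPM). Total gene reads per library ran from 17159084 to 26643133 on the conventional diet, 18056167 to 23289722 on the elemental diet, 9624785 to 12606633 in CD44+ cells and 10661694 to 14765572 in CD44- cells. Over the 26 libraries the members held 1281575 reads, of which the constant genes took 72.6%, the V segments 24.5% and the J segments 2.97%. Reads counted as intronic were 3.97% to 4.61% of gene reads on the conventional diet and 3.33% to 4.08% on the elemental diet. They were 20.6% to 29.0% in CD44+ and 9.39% to 27.0% in CD44- libraries. All reads of the members are counted there, and 3759 genes in all have an exon length of 0. These percentages are therefore no measure of unspliced RNA alone. Markers of other cells moved with the groups. Summed epithelial markers (15 genes) were 99.8 to 1051 CPM on the conventional and 1105 to 2106 CPM on the elemental diet, myeloid and dendritic markers (13 genes) 537 to 661 against 840 to 1842 CPM, and plasma cell markers (7 genes) 1031 to 2004 against 382 to 812 CPM. B cell markers (12 genes) were 424 to 784 against 212 to 488 CPM, and NK and innate lymphoid markers (5 genes) 104.4 to 146.2 against 72.5 to 104.3 CPM. Plasma cell markers were also 324 to 2008 CPM in CD44- and 2781 to 6326 CPM in CD44+ libraries, B cell markers 281 to 1081 and 721 to 2119 CPM, and NK and innate lymphoid markers 105 to 617 and 502 to 750 CPM. The part of these cells in the results below was not tested. Cd44 itself was 60.5 to 150 CPM in CD44- and 106 to 368 CPM in CD44+ libraries, which overlap.

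Of the 39 members, 36 had a read in at least 1 library, 32 had reads in all 26 libraries, and 35 passed the filter on low counts in both comparisons. Trbd1, Trbd2 and Trbj1-7 had 0 reads in all 26 libraries, which allows up to 3 counts, or 0.00726 CPM over all libraries and 0.113 to 0.312 CPM in a single one. Trbj1-7 is 1 of the 2 J segments without either motif; Trbj1-6, the other, had 968 reads. Trbv21 was read in 9 libraries and did not pass the filter.

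The constant genes differed little between the diets, and had the smallest standard errors among the members. Trbc1 was 1150, 1210 and 1236 CPM (lowest, median, highest) on the conventional diet and 1059, 1121 and 1196 CPM on the elemental diet. Trbc2 was 623, 661 and 700 CPM on the conventional and 601, 621 and 667 CPM on the elemental diet. Both pairs of ranges overlapped. In edgeR's quasi-likelihood fit of all 13088 genes tested, with library sizes scaled by TMM, the log2 fold change of elemental over conventional was -0.01 ± 0.08 (SE) for Trbc1 (adjusted p = 0.918) and 0.00091 ± 0.08 for Trbc2 (adjusted p = 0.996). Fold changes below are on this TMM scale, with Benjamini-Hochberg adjustment over all genes tested. A level in bulk RNA does not tell fewer cells of a type from less RNA per cell.

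How the authors' counting treated the shared start of the constant genes bears on the levels. Trbc1 had 588483 total gene reads, of which 27.5% were counted as unique, whereas all 341593 reads of Trbc2 were unique. Reads matching several places were therefore tallied on Trbc1 and none on Trbc2, and the total reads of Trbc1 hold reads that could belong to either gene. Among unique constant gene reads, Trbc1 made up 33.1% ± 0.99 (SD, n = 6) on the conventional diet, 33.1% ± 0.63 (n = 6) on the elemental diet, 28.2% ± 2.98 (n = 7) in CD44+ cells and 33.2% ± 5.08 (n = 7) in CD44- cells. The CD44 ranges, 24.4% to 31.8% and 25.8% to 40.4%, overlapped. Of V segment reads 99.99% were unique, although some V segments are much alike. As a percentage of the longer transcript, identical bases made up 90.6% for Trbv13-2 and Trbv13-3 and 87.4% for Trbv12-1 and Trbv12-2.

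Summed by class, the levels of the 2 diets overlapped. Constant gene reads came to 1861 ± 64.6 CPM (SD, n = 6) on the conventional and 1756 ± 78.8 CPM on the elemental diet, with overlapping ranges. Summed V reads were 689, 711 and 739 CPM on the conventional and 622, 637 and 693 CPM on the elemental diet, so that the ranges overlapped at their ends. J reads were 84.9 ± 4.58 and 84.4 ± 2.01 CPM. Set against the 4 CD3 chains, which carry the signal of the receptor, the constant genes stood at 0.930 ± 0.028 CPM per CD3 CPM on the conventional and 0.933 ± 0.034 on the elemental diet. V reads per 100 constant gene reads were 38.4 ± 1.61 and 37.0 ± 0.44. These class levels are descriptions and were not tested.

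**Figure D1:**
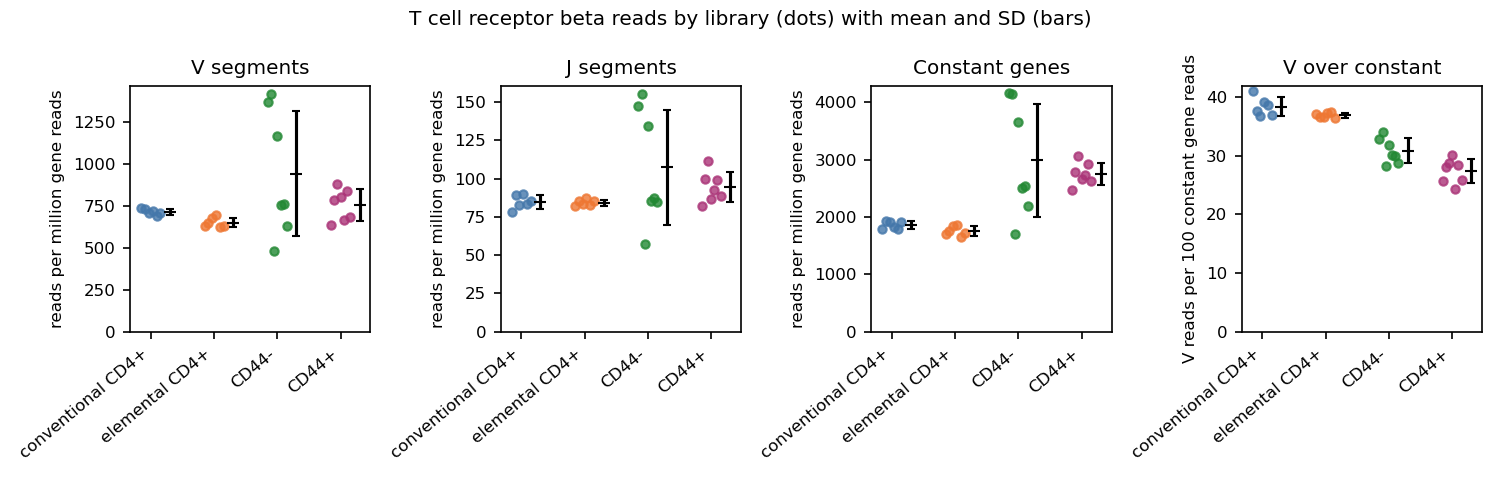
Summed reads of the V segments, J segments and constant genes in CPM, and V reads per 100 constant gene reads, on linear axes from 0. Each dot is 1 library, and the bar beside each group is the mean ± SD (n = 6, 6, 7 and 7). The CD4+ libraries lie close together, with constant gene sums of 1861 ± 64.6 and 1756 ± 78.8 CPM, while CD44- libraries range from 1705 to 4159 CPM.

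Among V segments, Trbv3 (chr6:41048290-41048828) had the largest share of V reads in 6 of 6 libraries on the conventional diet and 6 of 6 on the elemental diet. It was also first in all of them after division by gene length. Its share was 13.5%, 16.6% and 20.2% on the conventional diet and 11.5%, 14.7% and 22.9% on the elemental diet, and its log2 fold change was -0.17 ± 0.16 (adjusted p = 0.475). Trbv13-2 (chr6:41121396-41121832) took 7.39%, 9.43% and 10.1% against 7.13%, 7.81% and 9.26%, and Trbv31 took 6.88%, 9.07% and 10.1% against 6.70%, 7.32% and 8.43%. Trbv31 is the longest V segment, and after division by gene length it averaged 6.12% on the conventional and 5.15% on the elemental diet. Among the segments then above it on both diets were Trbv5 (7.08% and 6.44%) and Trbv16 (6.25% and 7.53%). The next by share over both diets were Trbv1, Trbv16, Trbv5, Trbv13-3, Trbv13-1, Trbv4 and Trbv19, whose group means lay between 4.23% and 7.67%. The groups overlapped for each of these segments.

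The difference in mean share between diets was larger than the SD of either diet for 6 of 22 V segments, among them Trbv26 and Trbv31. Of 22 segments, 12 had a higher and 10 a lower mean share on the elemental diet, the median size of the difference was 0.352 percentage points, and the largest was that of Trbv3 at 1.40 points. No V share failed to overlap between the diets. Whole profiles differed by a median Bray-Curtis distance, the percentage of V reads that would have to move between segments to turn 1 profile into the other, of 8.40% between libraries within the conventional diet, 8.78% within the elemental diet and 9.89% between the diets. The effective number of segments (inverse Simpson index, in which even use of all segments gives the highest value) was 13.0 ± 0.88 on the conventional and 13.8 ± 1.81 on the elemental diet.

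Trbv26 (chr6:41227505-41227993) was the only member called in the diet comparison, 1 of 35 (adjusted p under 0.05), against 18.0% of all genes tested. Its level was 20.7, 13.0, 14.0, 16.9, 17.8 and 17.1 CPM in replicates 1 to 6 on the conventional diet and 22.5, 18.5, 26.9, 21.04, 18.0 and 16.7 CPM on the elemental diet. The ranges overlapped. Replicate 1 of the conventional diet was above 3 of the elemental libraries. Replicate 6 of the elemental diet, at 16.7 CPM, was below conventional values of 16.9, 17.1, 17.8 and 20.7 CPM. The log2 fold change was 0.39 ± 0.13 (adjusted p = 0.0493 by edgeR), and the share of V reads was 2.33% ± 0.38 against 3.17% ± 0.51. The call was lost in 9 of the 12 fits that left out 1 library, where the adjusted p ran from 0.0205 to 0.107. It was also lost with library size scaling alone (log2 fold change 0.31, adjusted p = 0.150).

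Trbv31, the inverted segment, lay just short of the threshold in the other direction. It was 70.2, 50.2, 59.0, 72.2, 60.6 and 65.8 CPM on the conventional diet, and 53.1, 51.6, 47.1, 49.98, 41.6 and 46.8 CPM on the elemental diet. Only replicate 2 of the conventional diet fell within the elemental range. The log2 fold change was -0.30 ± 0.10 (adjusted p = 0.0547). It passed the threshold with library size scaling alone (-0.38, adjusted p = 0.0167) and with DESeq2 (-0.30, adjusted p = 0.0498). At an unadjusted p under 0.05, Trbv26 was higher and 4 V segments were lower: Trbv31, Trbv12-1 (-0.44 ± 0.17, adjusted p = 0.0821), Trbv12-2 (-0.31 ± 0.12, adjusted p = 0.0908) and Trbv13-2 (-0.21 ± 0.09, adjusted p = 0.116). The last 3 are named after their values were seen or for their share.

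**Figure D2:**
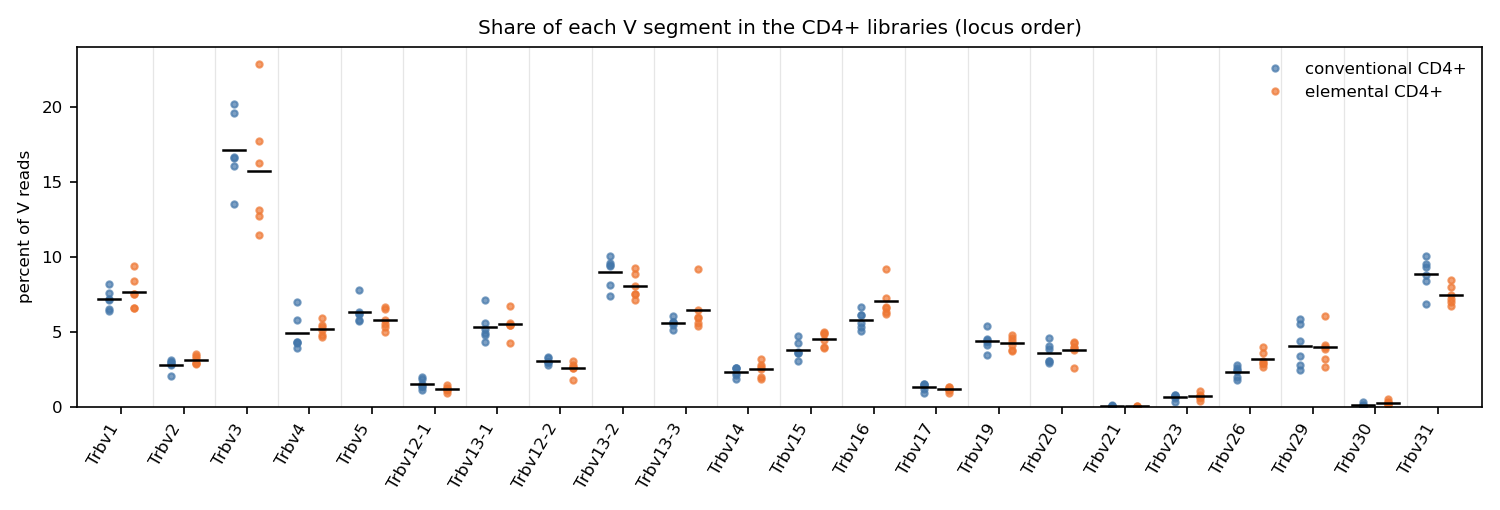
Share of V reads (percent, linear axis) of each of the 22 V segments, in order along the chromosome, in the conventional (blue, n = 6) and elemental (orange, n = 6) CD4+ libraries. Dots are libraries and black lines are group means. Trbv3 is highest in every library, and the 2 diets overlap for all 22 segments.

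Over the 35 members tested, 17 log2 fold changes were above 0 and 18 below, with a median of -0.0014. Below 0 stood 50.8% of all genes tested. No member's CPM failed to overlap between the diets, against 7.17% of all genes. With library size scaling alone, which moved the median of all genes to -0.09, 12 members stood above 0 and 23 below. The rarely read Trbv30 depended on 1 library. It had 13, 13, 5, 10, 11 and 44 reads on the conventional and 25, 66, 38, 23, 11 and 34 on the elemental diet, with a log2 fold change of 1.13 ± 0.56 (adjusted p = 0.165). Without replicate 6 of the conventional diet the fold change was 1.93 (adjusted p = 0.00767); it was singled out after its values were seen.

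J segments join the V and D parts to the constant gene. Reads of the first J cluster, which lies before Trbc1, made up 27.8% ± 1.97 of J reads on the conventional diet and 26.7% ± 1.39 on the elemental diet. Trbj2-1 took 16.1% ± 1.94 against 16.8% ± 2.86, Trbj2-7 13.9% ± 0.87 against 15.1% ± 1.44, Trbj2-3 13.7% ± 1.68 against 14.9% ± 1.47, and Trbj2-4 12.9% ± 1.38 against 12.0% ± 1.48. Neither these nor the other J segments differed beyond overlap of the diets. None of the 12 J segments tested was called, and their log2 fold changes ran from -0.24 (Trbj1-1) to 0.50 (Trbj1-5). J reads were few, 1419 to 2405 per library on the conventional and 1495 to 2033 on the elemental diet, which limits what could be detected for a single J segment.

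**Figure D3:**
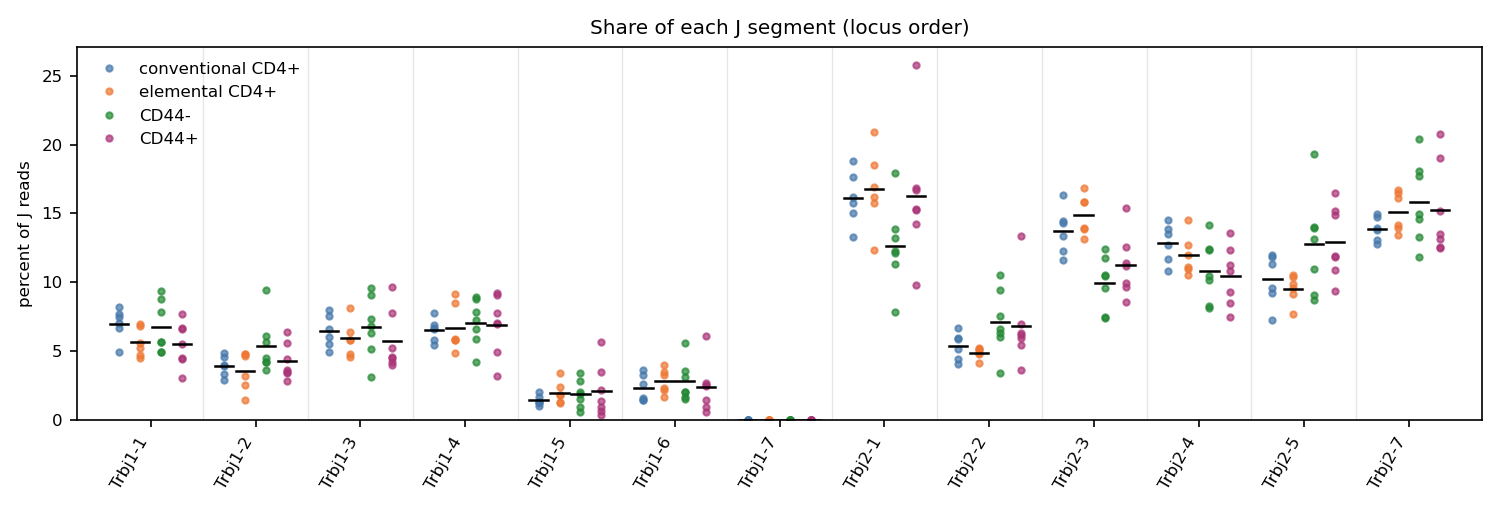
Share of J reads (percent, linear axis) of each of the 13 J segments, in order along the chromosome, in the 4 groups (n = 6, 6, 7 and 7). Dots are libraries and black lines are group means. Trbj1-7 is at 0 in every library. Trbj2-1 ranges from 9.83% to 25.8% in CD44+ and from 7.86% to 17.9% in CD44- libraries. On the conventional diet it ranges from 13.3% to 18.8%, and on the elemental diet from 12.4% to 20.9%.

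Some genes that work with the beta chain were called in the diet comparison. The counts below stand beside 18.0% of all genes called in this comparison in either direction (1315 higher and 1042 lower). Nothing particular to a list is read from them. Of the 7 CD3 and coreceptor chains, 1 was called higher and 2 lower. Cd3e, a CD3 chain, was 168, 212 and 242 CPM against 146, 166 and 201 CPM (log2 fold change -0.25 ± 0.08, adjusted p = 0.0474), and Cd4, the coreceptor used for the sort, was -0.58 ± 0.17 (adjusted p = 0.0283). Cd8b1, a chain of the other coreceptor, was 0.53 ± 0.16 (adjusted p = 0.0349), while Cd8a was -0.65 ± 0.28 (adjusted p = 0.123). Cd3d, Cd3g and Cd247 were not called, although the ranges of Cd3g, 544 to 635 CPM on the conventional and 478 to 542 CPM on the elemental diet, did not overlap (-0.16 ± 0.07, adjusted p = 0.135). Of 11 proximal signalling genes, 6 were called lower and none was called higher. Those called were the kinases Zap70 (-0.27 ± 0.06) and Fyn (-0.54 ± 0.11) and the costimulatory receptor Cd28 (-0.49 ± 0.09). The others called were the surface regulators Cd5 (-0.37 ± 0.10) and Cd6 (-0.53 ± 0.12) and the phosphatase Ptprc (-1.04 ± 0.30). The median over all 11 was -0.38, beside -0.0072 over all genes tested. Lck, the kinase bound to CD4, was -0.02 ± 0.07 (adjusted p = 0.884).

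The other receptor constant genes and the recombination enzymes gave a further contrast. Trac, the constant gene of the alpha chain that pairs with beta, was 577, 690 and 759 CPM on the conventional and 492, 575 and 657 CPM on the elemental diet (-0.15 ± 0.06, adjusted p = 0.102). Trdc, the delta chain constant gene, was -0.0059 ± 0.15 (adjusted p = 0.984). The gamma chain constant genes, listed as Tcrg-C1, Tcrg-C2 and Tcrg-C4, were 0.10 ± 0.22, -0.91 ± 0.34 and -0.46 ± 0.28. None of them was called (adjusted p = 0.769, 0.0791 and 0.262 by edgeR). Dntt, which adds untemplated bases at the junctions, was 3.05, 3.79 and 6.49 CPM on the conventional and 6.54, 10.3 and 11.4 CPM on the elemental diet. The ranges did not overlap, and the log2 fold change was 1.28 ± 0.21 (adjusted p = 0.0011). Rag1, which cuts the DNA, averaged 0.705 ± 0.78 and 1.13 ± 1.03 CPM (adjusted p = 0.591). Rag2, its partner, and Ptcra, the stand-in for the alpha chain in precursors, were too low to be tested. Of 11 alpha-beta T cell markers 4 were called lower. These were Cd3e, Zap70, Cd5 and Cd6, which are already counted in the lists above. Of the myeloid markers 13 of 13 and of the epithelial markers 9 of 15 were called higher, as were 1315 of the 13088 genes tested.

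In the CD44 sorts, 0 of the 35 members tested was called, against 0.920% of 10976 genes. At an unadjusted p under 0.05 none was higher and 2 were lower. DESeq2 called 2 members lower, where it called 674 of all 10976 genes. With limma-voom 1 member was called lower, beside 121 of 10976 genes. The standard errors were larger than in the diet comparison, with a median of 0.49 on the log2 scale over the members against 0.15. Of the 35 log2 fold changes of CD44+ over CD44-, 28 were below 0, beside 49.7% of all genes tested, with a median of -0.32. Members share libraries and, through the joined transcripts, RNA molecules, so that their signs are not separate observations. Library size scaling alone moved the median of all genes to 0.12, and 27 members then stayed below 0.

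CD44- libraries differed widely in the level of the whole locus. Constant gene reads were 4159, 4151, 1705, 3660, 2512, 2533 and 2185 CPM in CD44- replicates 1, 2, 4, 5, 6, 7 and 8. In CD44+ cells they were 2476, 2729 and 3061 CPM (lowest, median, highest), all inside the CD44- range. Summed V reads had their highest CD44- values in the same 3 libraries, replicates 2, 1 and 5 (1415, 1367 and 1167 CPM), and the lowest in replicate 4 (483 CPM). CD44+ libraries ranged from 637 to 879 CPM. Summed CD3 chains did not follow: they were 6068 CPM in CD44- replicate 2 and 9848 CPM in replicate 6, which had 2512 CPM of constant gene reads. Reads counted as intronic, which include all reads of the members, were 9.39% of gene reads in CD44- replicate 2. They were 17.7% to 27.0% in the other CD44- libraries. How they relate to these levels was not tested. Trbc1 had a log2 fold change of -0.31 ± 0.22 (adjusted p = 0.622) and Trbc2 of -0.13 ± 0.20 (adjusted p = 0.863).

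Trbv29 (chr6:41271394-41271881) had the largest log2 fold change between the CD44 sorts among the members. It had 37 to 222 reads in CD44+ and 316 to 931 reads in CD44- libraries. Its share of V reads was 0.504%, 1.15% and 2.32% in CD44+ cells and 2.49%, 4.49% and 6.51% in CD44- cells. It was the only V segment of 22 whose shares did not overlap, and the only one of 35 members tested whose CPM did not overlap, against 1.08% of all genes. The log2 fold change of -2.09 ± 0.50 missed the threshold (adjusted p = 0.0578) in edgeR. It passed with DESeq2 (-2.05, adjusted p = 0.000583) and with limma-voom (-2.31, adjusted p = 0.0204). On both diets the CD4+ libraries held 2.46% to 6.07% of V reads in Trbv29. It was named after its values were seen.

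Trbv3 led V reads in 7 of 7 CD44- libraries and in 3 of 7 CD44+ libraries, by reads as well as after division by gene length. Its share was 13.2%, 18.7% and 26.3% in CD44- and 3.95%, 12.1% and 16.6% in CD44+ cells, so that the ranges overlapped. The difference of the means was -7.44 percentage points, the largest among V segments. Its log2 fold change was -1.10 ± 0.35 (adjusted p = 0.153 by edgeR, 0.0420 by DESeq2). In the other CD44+ libraries the first by reads was Trbv31 in 2, Trbv13-2 in 1 and Trbv20 in 1. After division by gene length Trbv13-2 was first in 3 of these and Trbv13-1 in 1. Neither Trbv31 (762 bases) nor Trbv20 (705 bases) was then first in any of them. Trbv20 was 3.49%, 6.51% and 14.97% in CD44+ and 1.66%, 3.69% and 5.23% in CD44- cells, with a log2 fold change of 0.50 ± 0.47 (adjusted p = 0.734). Trbv31 was 4.80% to 17.5% against 3.55% to 9.31%, and Trbv16 4.06% to 9.82% against 3.42% to 7.53%. All of these ranges overlapped.

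**Figure D4:**
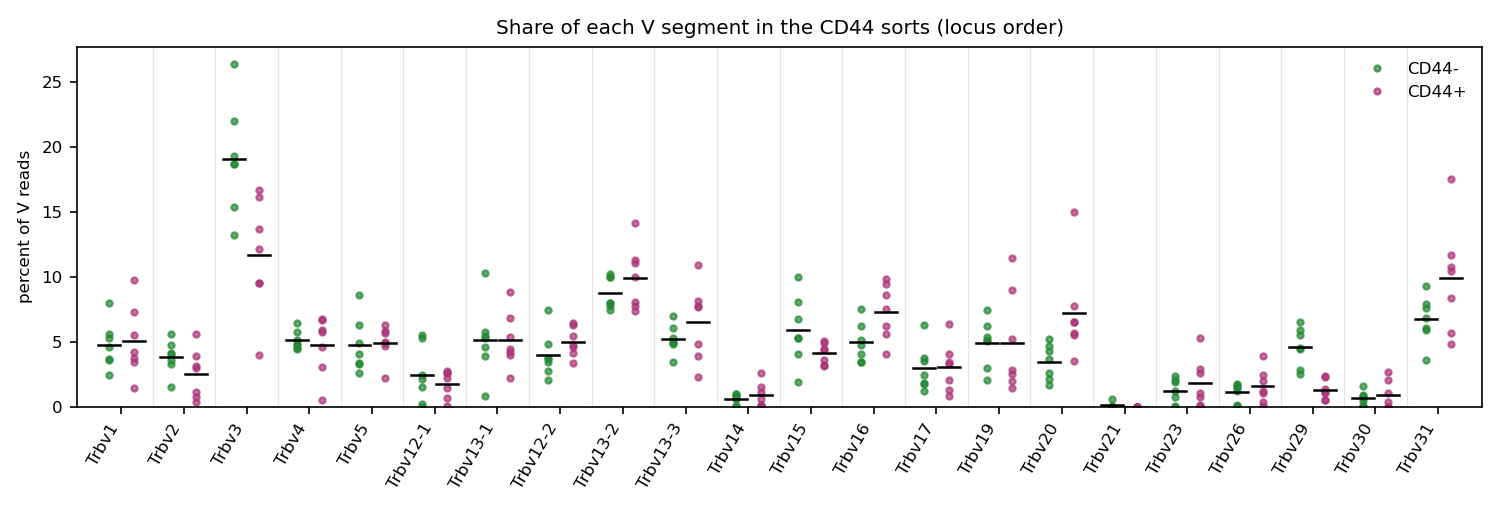
Share of V reads (percent, linear axis) of each of the 22 V segments, in order along the chromosome, in the CD44- (green, n = 7) and CD44+ (purple, n = 7) libraries. Dots are libraries and black lines are group means. Trbv29 is the segment whose groups do not overlap (2.49% to 6.51% against 0.504% to 2.32%), and single CD44+ libraries stand high for Trbv20 and Trbv31.

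Use of the V segments varied far more from library to library in the CD44 sorts than in the CD4+ sorts. Over the 19 segments that averaged at least 1% of V reads in a group, the median coefficient of variation of the share was 14.4% on the conventional and 14.4% on the elemental diet, against 48.0% in CD44+ and 37.5% in CD44- cells. Trbv26 shows the range, with 0.0465% to 3.92% in CD44+ and 0.0336% to 1.71% in CD44- libraries against 1.79% to 3.99% in all CD4+ libraries. Its reads in the CD44 libraries ran from 3 to 352. RNA input and kit cannot be told apart from the sort in this contrast.

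Whole V profiles gave the same order. The median Bray-Curtis distance was 25.8% between CD44+ libraries, 20.2% between CD44- libraries and 27.3% between the sorts. Libraries of both sorts that carry the same number were 27.2% apart, about as far as any other such pair. The profiles averaged over each sort were 14.98% apart, against 5.48% for the averages of the 2 diets. Such a distance also grows with the scatter between libraries, whose within-group medians were only 8.40% and 8.78% on the diets. RNA input and kit differ too, so these distances do not show that V use differed more between the sorts than between the diets. Despite this scatter the effective number of segments was 13.1 ± 1.59 in CD44+ and 12.2 ± 1.96 in CD44- cells, beside 10.6 to 15.4 in single CD4+ libraries. The 3 largest segments of a library together held 34.9% ± 5.27 of V reads in CD44+ and 36.4% ± 4.66 in CD44- cells, beside 34.999% ± 2.02 on the conventional and 32.5% ± 3.92 on the elemental diet.

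Averaged over both CD44 sorts, Trbj2-7, Trbj2-1, Trbj2-5 and Trbj2-3 had the most J reads, while in CD44- cells alone Trbj2-4 stood above Trbj2-3. Trbj2-7 took 15.2% ± 3.34 of J reads in CD44+ and 15.8% ± 2.98 in CD44- cells, and Trbj2-1 16.3% ± 4.80 against 12.7% ± 3.03. Trbj2-5 stood at 13.0% ± 2.60 and 12.8% ± 3.63, Trbj2-3 at 11.2% ± 2.25 and 9.96% ± 1.94, and Trbj2-4 at 10.5% ± 2.18 and 10.8% ± 2.25. The first J cluster held 27.0% ± 4.00 against 30.8% ± 5.39. All 13 J shares overlapped between the sorts, and 11 of 12 fold changes were below 0, from -0.62 (Trbj1-1) to 0.06 (Trbj2-1). J reads were 834 to 1259 per library in CD44+ and 636 to 2299 in CD44- cells, which limits what could be detected here too.

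**Figure D5:**
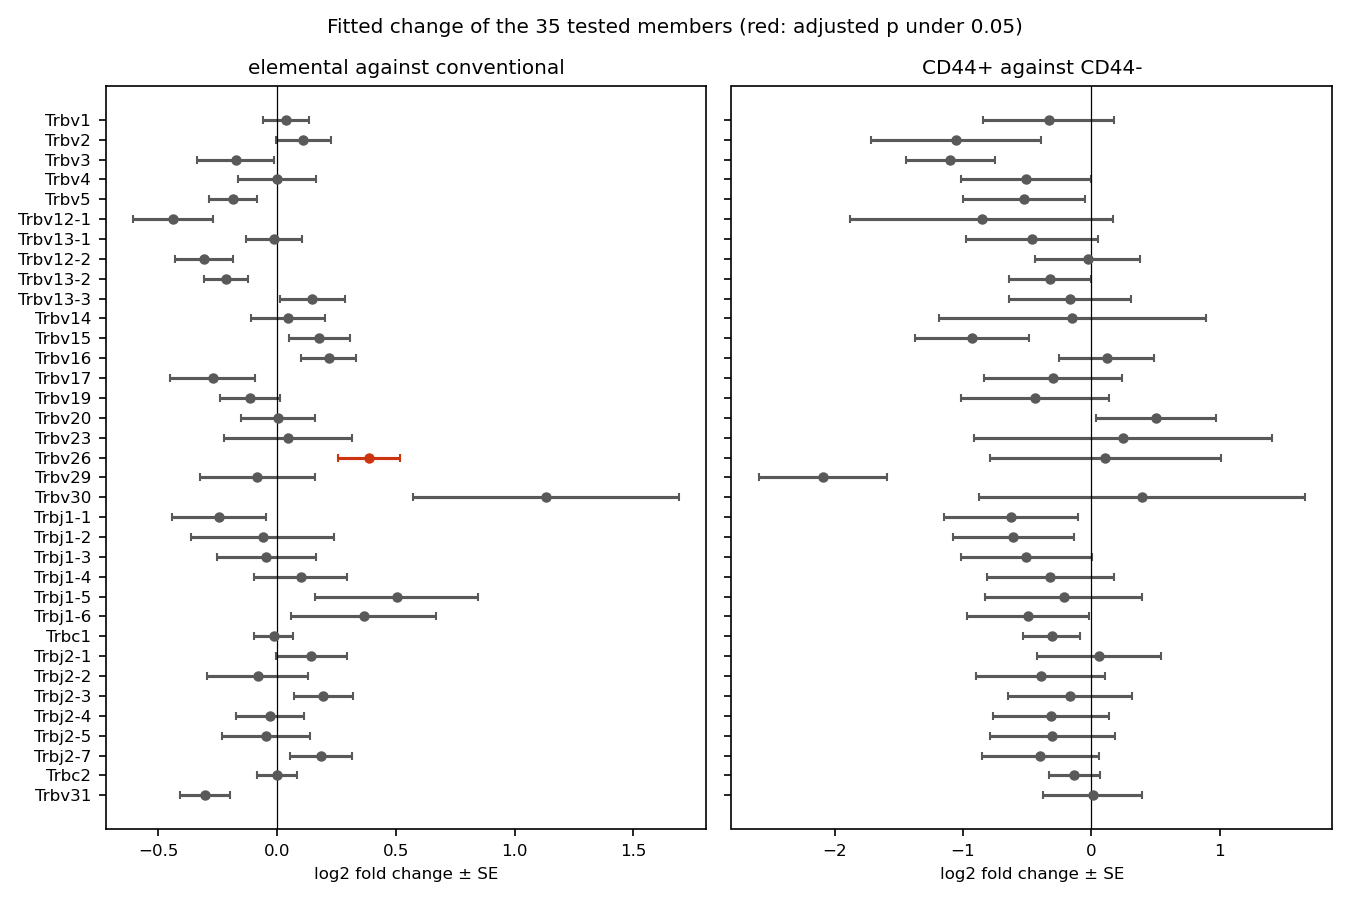
Log2 fold change ± SE of the 35 tested members in order along the chromosome, elemental over conventional diet (left) and CD44+ over CD44- (right), from edgeR's fit of all genes. Red marks an adjusted p under 0.05, which Trbv26 reaches on the left with 0.39 ± 0.13 and no member reaches on the right. The horizontal scales of the panels differ.

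None of the companion genes was called between the CD44 sorts, where 0.920% of all genes were, so that nothing about these genes is read from the counts: 0 of 7 CD3 and coreceptor chains, 0 of 11 proximal signalling genes, 0 of 2 other receptor constant genes, and 0 of 1 recombination and precursor gene that could be tested (Dntt). Cd247, the signalling zeta chain, was 220, 394 and 673 CPM in CD44- and 173, 223 and 290 CPM in CD44+ libraries (-0.91 ± 0.26, adjusted p = 0.112). Cd4 was 69.2, 129 and 598 CPM in CD44- against 60.1, 72.4 and 116 CPM in CD44+ libraries (-1.42 ± 0.43, adjusted p = 0.133). Cd44 gave 0.90 ± 0.30 (adjusted p = 0.178). Dntt was spread over 0 to 59.0 CPM in CD44+ and 0.0704 to 37.8 CPM in CD44- libraries. Beside these, 2 of the 5 plasma cell markers, 2 of the 12 myeloid and dendritic markers and 1 of the 12 B cell markers tested were called higher in CD44+ cells. Of all 10976 genes tested, 49 were called higher.

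Between Trbv1 and the D segments lie genes that are no receptor segments, among them trypsinogens, digestive enzymes of the pancreas. The span of the locus holds 14 other genes, all protein coding, of which 10 had reads. Gm2663, the highest in both CD44 sorts, had a mean of 0.910, 1.03, 9.61 and 3.95 CPM on the conventional diet, the elemental diet, in CD44+ and in CD44- cells. Prss2, the highest on both diets, averaged 1.496, 2.18, 3.32 and 1.54 CPM in the same order, and Try5 0.108, 0.0261, 2.56 and 0.0229 CPM, with a highest count of 196 reads in 1 CD44+ library. Neither Gm2663 nor Prss2 was called in the diet comparison (adjusted p = 0.853 and 0.254), and none of the 14 passed the filter in the CD44 comparison.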

How the data were processed

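Messenger RNA of 26 libraries in 4 groups was analysed. The authors deposited whole read counts per gene for each library, with unique, total, exon and intron reads per the file headers. Gene positions are on GRCm38, per the submitters' processing notes. Which aligner and counter were used is not given in the sources used here. The members' total gene reads were used because these have 0 exon reads. The TPM and RPKM columns were not used. Each comparison was fitted over all genes of its 2 groups with edgeR 4.0.16 in R 4.3.3 (filterByExpr, TMM, robust quasi-likelihood test, two-sided), with Benjamini-Hochberg adjustment and a call at an adjusted p under 0.05. SE is the log2 fold change divided by the root of F. Alternatives used DESeq2 1.42.0, limma 3.58.1 (voom), other scaling, filters and reads, a replicate block, and leaving out libraries. Shares, CPM and distances used Python 3.11.15 with pandas 2.3.3 and are descriptions. The fit was tested on simulated data. No library was a copy of another of its group (lowest chi-square per degree of freedom of a pair 14.2, genes with 20 or more reads). The members and gene lists were chosen with earlier results of these data known. Named were the constant genes, the 10 V segments of highest mean share, the 4 J segments of highest mean reads, called members, the listed companion genes and up to 3 other genes of the locus; others are marked as named after their values were seen. The limits given for members with 0 reads cover counting error only, whereas SD and SE include the spread between libraries.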

Additional observations from a re-analysis of the deposited data

Results flagged for a closer look

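Within single groups, a library stood apart from the rest of its group in 7 cases, by the size of the gap to the nearest other library relative to the range of the group, out of 116 group and measure combinations looked at. Chance sets apart about 1 in 20 groups. On the conventional diet, replicate 3 had the lowest Trbv2 share of V reads at 2.05%, the next being 2.79%, and replicate 1 the highest Trbv5 share at 7.78%, the next being 6.35%. On the elemental diet, replicate 6 had the highest Trbv13-3 share at 9.20% (next 6.46%) and the lowest Trbv20 share at 2.56% (next 3.76%), and replicate 4 had the highest Trbv16 share at 9.17% (next 7.24%). Among CD44+ libraries, replicate 7 was lowest for Trbv5 at 2.23% (next 4.70%), and replicate 6 was highest for Trbv20 at 14.97% (next 7.72%). None of the constant gene levels or summed class levels stood apart in this way.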

How the results depend on the processing

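Trbv26 was higher and Trbv31 lower on the elemental diet in every fit run, and only their side of the threshold moved. The count of members called in the diet comparison was 1, beside 2357 of 13088 genes in all. It was 2 with DESeq2 (Trbv26 and Trbv31), beside 3024 of 13084 genes. With both of conventional replicate 6 and elemental replicate 1 left out it was 2 (Trbv26 and Trbv30), beside 3336 of 13103 genes. Over the 12 fits without 1 library it was 0 to 2. With library size scaling alone (2264 of 13088 genes called), or with no filter on low counts (2170 of 19965), it was also 1, but the member was Trbv31. In the CD44 comparison the count of 0 became 2 with DESeq2, 1 with limma-voom, and stayed 0 in all 14 fits without 1 library. All genes called there numbered 101, against 674 with DESeq2, 121 with limma-voom, 64 with total exon reads and 49 to 132 without 1 library. On diet they numbered 2357, against 1584 to 3871 without 1 library. V segments that did not overlap numbered 0 to 1 on diet and 1 to 2 in the CD44 sorts without 1 library. The cause of these changes was not tested.

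Whether the replicate numbers pair the samples is not known. As deviations from their group means, same-numbered libraries correlated at -0.12 to 0.22 on diet and -0.03 to 0.10 in the CD44 sorts. Both CD44 sorts carry the same replicate numbers, and low correlations cannot show that same-numbered libraries came from different animals. With the replicate block, 0 members were called on diet (Trbv26 0.39, adjusted p = 0.0687 by edgeR) and 0 in the CD44 sorts. All genes called numbered 2182 on diet and 44 in the CD44 sorts.

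Signs were followed for the constant genes, the leading V and J segments, Trbv26, Trbv29 and Trbv30; with library size scaling alone members beyond these changed sign too, as the count of 12 above and 23 below 0 shows. On diet the changes among those followed were Trbc1 with unique reads (0.0053), Trbc2 with library size scaling alone (-0.073) and with no filter (-0.029), Trbv1 with library size scaling alone (-0.044), Trbv4 with limma-voom (0.083) and the block (0.048), and, when conventional replicate 6 and elemental replicate 1 were both left out, Trbc1 (0.045), Trbj2-4 (0.016) and Trbv4 (0.15). In the CD44 sorts they were Trbv30 with limma-voom (-1.72) and the block (-1.78), and Trbv31 with no filter (-0.025). Without 1 library, diet values ran from -0.053 to 0.032 for Trbc1, -0.033 to 0.059 for Trbc2, -0.11 to 0.027 for Trbj2-4, -0.020 to 0.086 for Trbv1, -0.070 to 0.083 for Trbv13-1, -0.019 to 0.19 for Trbv13-3, -0.18 to 0.0023 for Trbv19, -0.24 to 0.052 for Trbv29 and -0.076 to 0.18 for Trbv4. CD44 values ran from -0.096 to 0.23 for Trbj2-1, -0.29 to 0.037 for Trbj2-3, -0.35 to 0.10 for Trbv13-3, -0.041 to 0.40 for Trbv16, -0.31 to 0.50 for Trbv26, -0.28 to 0.62 for Trbv30 and -0.16 to 0.20 for Trbv31. Class levels and V shares with total exon reads could not be computed, since the members have none.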
